A study of Homo sapiens with 4 samples.

Results

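A set of 49 genes stood on opposite sides in HCT116 cells given TTC22 and in HCT116 cells in which TTC22 had been lowered. Of these, 21 were higher with TTC22 and lower with TTC22 siRNA, led by ADNP2, KIAA0040 and AK3, and 28 were lower with TTC22 and higher with the siRNA, led by PPP1R15B, MEX3C and HOXB7. The genes were chosen from the measured values themselves: a mean of at least 1 FPKM in each experiment, log2 folds of 1 or more in each, in either direction, opposite signs, and a value above 0 in all 4 libraries. FPKM is a count of fragments divided by gene length and library size, and a log2 fold was taken on the log2(FPKM + 1) scale, which understates the change of low genes. TTC22, SFN, TGFBI, THBS1, IFIT5, S100A2, RPL29 and genes whose names begin with KRT or RAB were left out by name. The tables held 47251 genes, of which 9226 were measured in both experiments and 9092 could have become members. Since the folds chose the genes, their sizes and directions are given as a description and support nothing.

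HCT116 is an established human colon cancer cell line. In the plasmid experiment some cells received 2 µg of a pCMV-entry plasmid encoding TTC22V1 (overexpression) and others 2 µg of control vector (vector). In the siRNA experiment some cells received 3 siRNAs against TTC22, 100 nM in total (knockdown), and others scramble siRNA at 100 nM (scramble). RNA was taken 48 hours after transfection and polyadenylated RNA was sequenced, as 1 library per group, so no difference has a replicate error or a test. The effect is that of transient transfection of a single line, from a plasmid named for the viral CMV promoter in one arm and a pool of siRNAs in the other. The experiments differ from each other in transfection, while the groups within each had the same dose and time. TTC22 itself was at 24215 FPKM with overexpression and 4.46 FPKM in vector, and at 6.54 FPKM with knockdown and 10.7 FPKM in scramble (log2 fold −0.63), so the lowered arm did not reach the size asked of the members. The vector library held less TTC22 than the knockdown library. FPKM values summed to between 181102 and 205734 per library, and the depth of the libraries is unknown. In overexpression the sum was 188638 FPKM, of which TTC22 alone made up 24215. The median log2 fold of genes measured in the plasmid comparison was −0.21, and whether the share of TTC22 had a part in it was not tested. EPCAM, CDH1, KRT8, KRT18 and KRT19, markers of epithelial cells, stood between 8.68 and 836 FPKM in every library, while CDX1, VIL1 and LGALS4, markers of differentiated intestinal epithelium, stayed under 1 FPKM in all of them. CDX2, a transcription factor of the intestine, stood at 1.63, 4.29, 1.28 and 2.80 FPKM in overexpression, vector, knockdown and scramble.

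TTC22 encodes a protein with tetratricopeptide repeats, helical motifs through which many proteins bind partners. Gain and loss of the same gene are often compared because a transcript that follows the amount of that gene would be expected to move one way with gain and the other way with loss. No pathway was used to choose the members. They include regulators of transcription and chromatin, components of secretory and degradative membranes, proteins of the cytoskeleton and of cell contacts, RNA and protein phosphatase regulators, and enzymes of mitochondrial and lipid metabolism.

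Among the genes left by the filters, opposite movement was about as frequent as movement in one direction. With the same filters 57 genes, 0.627% of the 9092, passed the size rule in the same direction in both experiments, against 49 genes, 0.539%, in opposite directions. The filters had taken out 13 genes of opposite movement by name and 12 for a value of 0. With the names kept the rule found 22 and 39 genes in the 2 opposite directions. Genes of like movement that the filters took out were not counted. The members higher with TTC22V1 made up 0.231% of the 9092 and those lower with it 0.308%. In the plasmid comparison alone 2.08% of 10191 measured genes were higher by 2-fold and 4.1% were lower, and in the siRNA comparison 2.57% of 9744 were higher and 2.19% lower. Nothing is read from these shares about the members, since the same comparisons chose them.

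**Figure D1:**
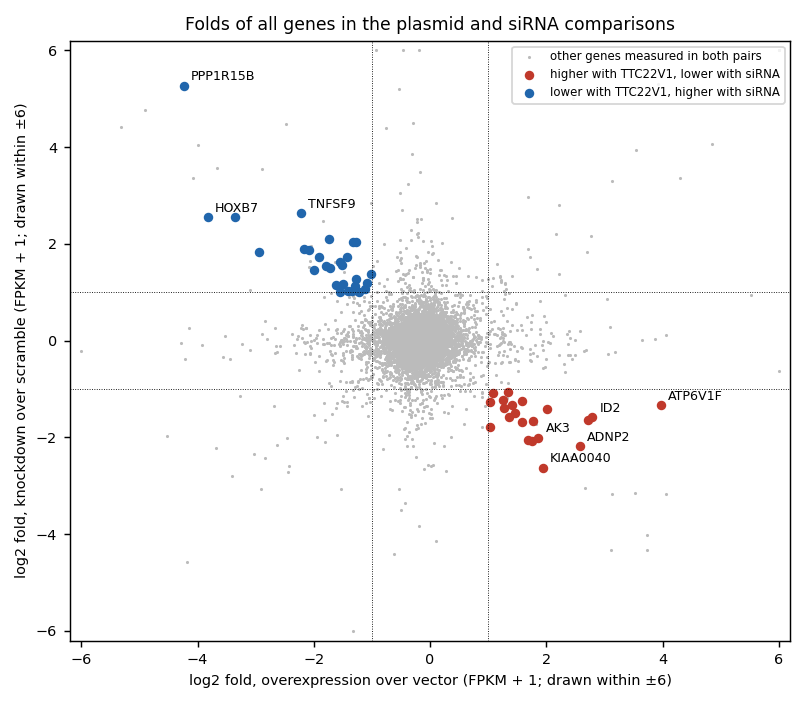
Log2 folds on the log2(FPKM + 1) scale of overexpression over vector (x axis) and of knockdown over scramble (y axis) for the 9226 genes measured in both experiments, 1 library per group, with values beyond 6 drawn at 6; dotted lines mark 2-fold. The 21 red and 28 blue points are the members, with PPP1R15B (−4.24 and 5.27) the farthest from the centre of the blue points and ATP6V1F (3.97 and −1.34) of the red; grey points in the same corners were left out by name or for a value of 0.

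Promoter sequence is shown for the 3 members in each direction with the largest folds among those with 4 or more exons and a single start in RefSeq's promoter table, so that genes that moved together can be set side by side. Each run is the 150 bases before the start given by that promoter table on GRCh38.p14, 5′ to 3′ on the gene's strand. This start need not be the outer end of the gene. The windows of PCYOX1 and PTHLH lie inside the spans of these genes in GENCODE 44 (70257386 to 70281185 and 27958084 to 27972733). The window of KIAA0040 overlaps the end of its span. Capitals mark matches, on either strand, to the core element TATAAA, to CCAAT, to the GC box GGGCGG or to the AP-1 element TGANTCA. KIAA0040 (chr1:175192988-175193137, minus strand), PCYOX1 (chr2:70257987-70258136, plus strand) and PPIL1 (chr6:36874804-36874953, minus strand) were higher with TTC22V1. PTHLH (chr12:27969977-27970126), SH3PXD2B (chr5:172454526-172454675) and COL17A1 (chr10:104085881-104086030), all on the minus strand, were lower with it.
KIAA0040: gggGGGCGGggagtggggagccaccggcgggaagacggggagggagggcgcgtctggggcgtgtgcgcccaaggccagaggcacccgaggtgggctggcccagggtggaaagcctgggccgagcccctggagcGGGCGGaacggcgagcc
PCYOX1: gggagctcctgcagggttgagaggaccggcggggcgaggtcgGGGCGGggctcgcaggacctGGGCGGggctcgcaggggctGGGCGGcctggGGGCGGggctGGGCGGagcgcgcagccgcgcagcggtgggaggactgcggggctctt
PPIL1: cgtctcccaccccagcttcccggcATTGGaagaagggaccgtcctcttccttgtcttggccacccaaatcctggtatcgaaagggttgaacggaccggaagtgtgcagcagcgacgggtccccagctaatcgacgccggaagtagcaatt
PTHLH: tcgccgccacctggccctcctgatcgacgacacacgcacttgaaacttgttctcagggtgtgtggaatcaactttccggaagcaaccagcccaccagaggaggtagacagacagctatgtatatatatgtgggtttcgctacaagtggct
SH3PXD2B: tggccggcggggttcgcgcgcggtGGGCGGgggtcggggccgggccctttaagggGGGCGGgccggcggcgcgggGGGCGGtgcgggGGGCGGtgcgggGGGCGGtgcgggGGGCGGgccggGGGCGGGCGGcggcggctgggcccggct
COL17A1: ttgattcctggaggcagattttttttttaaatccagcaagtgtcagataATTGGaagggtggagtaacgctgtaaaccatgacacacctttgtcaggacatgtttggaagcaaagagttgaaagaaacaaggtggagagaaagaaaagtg
The windows differ widely in base composition, from 40.0% G and C in COL17A1 to 90.0% in SH3PXD2B, which holds 8 GGGCGG matches. The window of PCYOX1 holds 5 such matches and that of KIAA0040 holds 2, while the window inside PTHLH holds none of the 4 motifs.

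Over the members with a single start, GGGCGG lay in the windows of 8 of 14 genes higher with TTC22V1 and of 9 of 17 genes lower with it, against 66.6% of 5291 genes measured in both experiments and 35.3% of all 22114 single-start genes. CCAAT lay in 5 of 14 and 6 of 17, against 28.3% and 24.6%. TATAAA lay in 0 of 14 and 1 of 17, against 2.63% and 7.66%, and TGANTCA in 0 of 14 and 0 of 17, against 2.02% and 4.31%. These matches describe letters in a window and no binding. The median content of G and C was 68.7% and 66.0% in the member windows and 69.3% in those of measured genes.

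Among the genes higher with TTC22V1, 4 regulate transcription or chromatin. ADNP2 (ENSG00000101544, chromosome 18, 80109262 to 80147523 on the plus strand of hg38, 4 exons), a zinc finger and homeodomain protein related to ADNP, stood at 9.57 FPKM with overexpression and 0.770 FPKM in vector, a log2 fold of 2.58. In the siRNA experiment ADNP2 stood at 1.74 FPKM with knockdown and 11.4 FPKM in scramble, a log2 fold of −2.18. Overexpression and scramble were the high libraries, and the lowest of them lay above the highest of the others. ID2, an inhibitor of helix-loop-helix transcription factors, stood at 33.6 FPKM with overexpression, 3.99 in vector, 16.6 with knockdown and 51.7 in scramble. Its vector library stood apart below the other 3. FAM60A, a subunit of the SIN3 histone deacetylase complex, stood at 22.1, 8.001, 8.28 and 26.6 FPKM in overexpression, vector, knockdown and scramble. SOX8, a transcription factor of the SOX family, was the lowest of these, at 1.87, 0.354, 1.13 and 3.49 FPKM in that order. ADNP, the relative of ADNP2, stood at 8.55, 11.4, 4.68 and 6.08 FPKM and so did not share the pattern.

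Several members higher with TTC22V1 serve the secretory, endosomal and degradative membranes. TMEM230, a protein of trafficking vesicles, stood at 25.3 FPKM with overexpression and 25.6 FPKM in scramble, against 6.76 FPKM in vector and 5.32 FPKM with knockdown. The high libraries differed by less than 0.1 on the log2 scale, and the low ones by −0.30. PCYOX1, a lysosomal enzyme that breaks down prenylated cysteine, stood at 11.6, 2.91, 2.82 and 14.8 FPKM in overexpression, vector, knockdown and scramble. ATP6V1F, a subunit of the proton pump that acidifies lysosomes, stood at 21.3, 0.419, 7.72 and 21.0 FPKM. It has 3 exons, and its knockdown library lay nearer to the high libraries than to vector on the log2 scale. GABARAPL1, an autophagosome protein of the ATG8 family, stood at 11.7, 4.02, 9.24 and 20.3 FPKM, and its overexpression library lay close to its knockdown library (log2 difference −0.31). EMC6, a subunit of the endoplasmic reticulum complex that inserts membrane proteins, stood at 21.4, 9.91, 5.02 and 19.7 FPKM. IMPAD1, a Golgi nucleotide phosphatase, stood at 10.97, 1.96, 2.66 and 8.77 FPKM. Of the relatives of GABARAPL1, GABARAP stood at 32.2, 36.7, 40.0 and 42.8 FPKM and GABARAPL2 at 14.7, 15.9, 5.81 and 16.7 FPKM, the latter low with knockdown and not in vector.

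Metabolic and signalling members of the same direction included AK3 (ENSG00000147853, chromosome 9, 4709556 to 4742043 on the minus strand, 5 exons), which encodes the adenylate kinase of the mitochondrial matrix that uses GTP. AK3 stood at 10.9 FPKM with overexpression and 2.27 in vector (log2 fold 1.86), and at 3.20 FPKM with knockdown and 15.8 in scramble (−2.00). ADIPOR2, a receptor for adiponectin, stood at 16.0, 4.69, 6.04 and 21.6 FPKM in overexpression, vector, knockdown and scramble. Its relative ADIPOR1 stood at 39.6, 45.3, 52.0 and 52.9 FPKM, without that pattern. KIAA0040 (ENSG00000235750, chromosome 1, 175156986 to 175192999 on the minus strand, 5 exons), a protein of unknown function, stood at 14.4 against 3.03 FPKM (1.94) and 3.25 against 25.2 FPKM (−2.63). The 2 phosphatase regulators of this direction were PPP1R11, at 12.5, 4.08, 4.49 and 12.9 FPKM, and ELFN2, a transmembrane protein that inhibits protein phosphatase 1, at 7.69, 0.324, 1.42 and 6.61 FPKM. ELFN2 has 3 exons and was lowest in vector. PPIL1, a prolyl isomerase of the spliceosome, stood at 19.4, 4.99, 3.11 and 12.0 FPKM, and TPD52L2, a protein of the D52 family, at 45.1, 15.8, 14.4 and 42.4 FPKM.

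Cytoskeletal and adhesion members were also among the genes higher with TTC22V1. BRK1, a subunit of the WAVE complex that promotes actin branching, stood at 66.4 FPKM with overexpression, 27.2 in vector, 24.3 with knockdown and 58.0 in scramble. CNN2, an actin-binding calponin, stood at 60.6, 29.2, 29.0 and 70.8 FPKM and had the smallest plasmid fold of the 21, 1.03. LIMS1, an adapter that links integrins to actin through integrin-linked kinase, stood at 7.38, 1.81, 2.80 and 7.998 FPKM. TPPP, which promotes tubulin polymerisation, stood at 2.05, 0.256, 0.267 and 2.32 FPKM. In BRK1, CNN2 and TPPP the vector and knockdown libraries differed by no more than 0.16 on the log2 scale. The calponin CNN3 stood at 49.2, 49.8, 89.4 and 96.6 FPKM, without the pattern of CNN2.

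**Figure D2:**
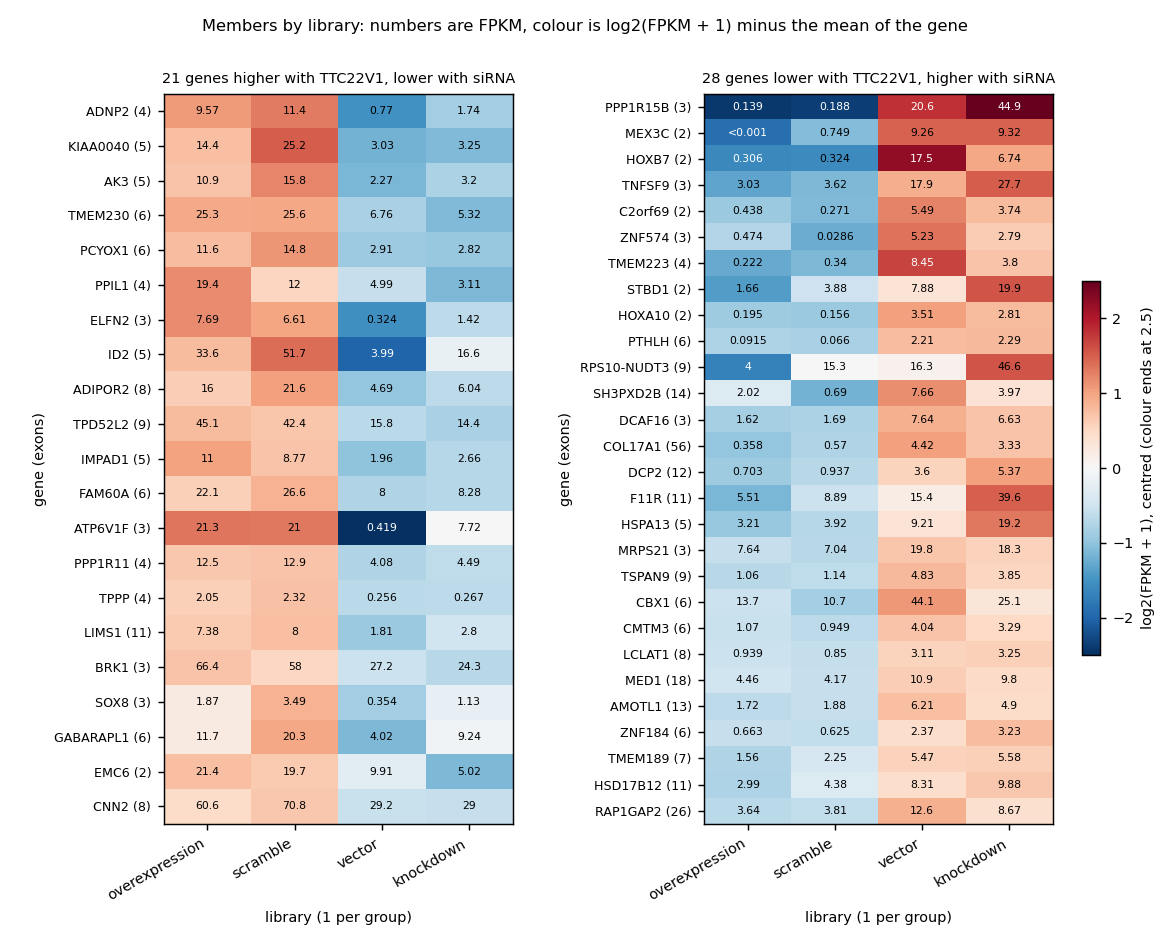
FPKM of the 49 members (rows, with exon numbers) in the 4 libraries (columns, 1 per group); colour is log2(FPKM + 1) minus the mean of the gene, with the scale ending at 2.5. In all 21 rows on the left the overexpression and scramble libraries are above vector and knockdown, and in all 28 rows on the right they are below them.

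Among the genes lower with TTC22V1, several act on RNA and translation, and PPP1R15B had the widest folds of all 49 members on the log2(FPKM + 1) scale. With a pseudocount of 0.1 in place of 1, the plasmid fold of MEX3C (−6.55) was wider than that of PPP1R15B (−6.43). PPP1R15B (ENSG00000158615, chromosome 1, 204396492 to 204411887 on the minus strand, 3 exons), which directs protein phosphatase 1 to the initiation factor eIF2, stood at 0.139 FPKM with overexpression and 20.6 FPKM in vector. It stood at 44.9 FPKM with knockdown and 0.188 FPKM in scramble, with log2 folds of −4.24 and 5.27. Its stress-inducible relative PPP1R15A stood at 26.9, 38.6, 78.2 and 58.3 FPKM in overexpression, vector, knockdown and scramble, with folds of the same signs that did not pass the size rule. MEX3C, an RNA-binding ubiquitin ligase with 2 exons, stood at 9.26 FPKM in vector, 9.32 with knockdown and 0.749 in scramble, and was listed at 4.12e-06 FPKM with overexpression, barely above 0. DCP2, which removes the cap from mRNA and has 12 exons, stood at 0.703, 3.60, 5.37 and 0.937 FPKM in overexpression, vector, knockdown and scramble. DCP1A and DCP1B, its activators, stood at 6.83, 7.68, 3.56 and 8.45 FPKM and at 2.61, 4.07, 2.18 and 2.18 FPKM, without that pattern. MRPS21, a mitochondrial ribosomal protein, stood at 7.64, 19.8, 18.3 and 7.04 FPKM, so that its low libraries and its high libraries each lay within 0.11 of each other on the log2 scale.

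Transcription and chromatin members of this direction included 2 homeobox genes. HOXB7 (2 exons) stood at 0.306 FPKM with overexpression, 17.5 in vector, 6.74 with knockdown and 0.324 in scramble, and HOXA10 (2 exons) at 0.195, 3.51, 2.81 and 0.156 FPKM. Neighbours in the HOXB cluster did not share this: HOXB6 stood at 6.77, 9.40, 4.76 and 4.24 FPKM, HOXB8 at 4.83, 6.45, 2.22 and 1.52 FPKM, and HOXB9 at 13.3, 15.6, 9.48 and 0.927 FPKM, low in scramble and not with overexpression. CBX1, the heterochromatin protein HP1 beta, stood at 13.7, 44.1, 25.1 and 10.7 FPKM in overexpression, vector, knockdown and scramble. Its relatives CBX3 and CBX5 had plasmid folds of 0.16 and −0.14 and siRNA folds of 0.31 and 0.05. MED1, a subunit of the Mediator complex with 18 exons, stood at 4.46, 10.9, 9.80 and 4.17 FPKM. The zinc finger genes ZNF574 and ZNF184 stood at 0.474, 5.23, 2.79 and 0.0286 FPKM and at 0.663, 2.37, 3.23 and 0.625 FPKM.

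Members at cell contacts and in the matrix were lower with TTC22V1 as well. COL17A1, the transmembrane collagen of hemidesmosomes, whose 56 exons were the most of any member, stood at 0.358 FPKM with overexpression, 4.42 in vector, 3.33 with knockdown and 0.570 in scramble (log2 folds −2.00 and 1.46). F11R, the junctional adhesion molecule JAM-A, stood at 5.51, 15.4, 39.6 and 8.89 FPKM, with knockdown apart above vector. AMOTL1, an angiomotin of tight junctions, stood at 1.72, 6.21, 4.90 and 1.88 FPKM, and SH3PXD2B, a scaffold of podosomes, at 2.02, 7.66, 3.97 and 0.690 FPKM. The membrane proteins TSPAN9 and CMTM3 stood at 1.06, 4.83, 3.85 and 1.14 FPKM and at 1.07, 4.04, 3.29 and 0.949 FPKM. Of secreted or surface ligands, PTHLH, the parathyroid hormone-related protein, stood at 0.0915, 2.21, 2.29 and 0.0660 FPKM, and TNFSF9, the ligand of the costimulatory receptor CD137, at 3.03, 17.9, 27.7 and 3.62 FPKM. In PTHLH the vector and knockdown libraries differed by 0.04 on the log2 scale. RAP1GAP2, which switches off the small GTPase Rap, stood at 3.64, 12.6, 8.67 and 3.81 FPKM and had the smallest siRNA fold of the 28, 1.01.

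The remaining members lower with TTC22V1 act in metabolism, in protein folding or in protein turnover. HSPA13, a chaperone of the Hsp70 family, stood at 3.21, 9.21, 19.2 and 3.92 FPKM in overexpression, vector, knockdown and scramble. HSD17B12, an enzyme of fatty acid elongation, stood at 2.99, 8.31, 9.88 and 4.38 FPKM, and LCLAT1, an acyltransferase of cardiolipin, at 0.939, 3.11, 3.25 and 0.850 FPKM. TMEM189, an enzyme of plasmalogen synthesis, stood at 1.56, 5.47, 5.58 and 2.25 FPKM. TMEM223, a mitochondrial membrane protein with 4 exons, stood at 0.222, 8.45, 3.805 and 0.340 FPKM, C2orf69, a mitochondrial protein with 2 exons, at 0.438, 5.49, 3.74 and 0.271 FPKM, and STBD1, which binds glycogen and has 2, at 1.66, 7.88, 19.9 and 3.88 FPKM. DCAF16, a substrate receptor of a ubiquitin ligase, stood at 1.62, 7.64, 6.63 and 1.69 FPKM. All 49 members are annotated as protein-coding, as are 97.6% of the measured genes, and they lie on 19 chromosomes.

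The members fell into the same 2 groups of libraries throughout. In all 21 genes higher with TTC22V1 both the overexpression and the scramble library were above both others, an order that 4.44% of the 9226 measured genes showed at any size. In all 28 genes lower with TTC22V1 both were below both others, an order that 11.2% showed. The folds chose the genes for part of this order, since overexpression had to exceed vector and scramble to exceed knockdown, or the reverse. The controls were therefore far apart: scramble over vector was at least 2-fold higher in 20 of the 21 (4.77% of the 9226 measured genes) and at least 2-fold lower in 23 of the 28 (12.9%), with medians of 1.73 and −1.47 on the log2 scale against −0.23 for all measured genes. The folds of the treatments had medians of 1.58 and −1.57 in the first of these sets and −1.55 and 1.55 in the other, against −0.21 and −0.03 for measured genes.

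In most members, as in most measured genes, the treated libraries lay close to the control of the other experiment. Overexpression was within 2-fold of scramble in 48 of 49 members, 98.0%, against 85.7% of the 9226 measured genes, with RPS10-NUDT3 as the exception. Knockdown was within 2-fold of vector in 41 of 49, 83.7%, against 80.0% of measured genes, a share near the background. Both held in 41 of 49, 83.7%, against 73.9%. The sum of these distances equals the sum of the opposite folds, so they are not independent of the choice of members. With each treated library set against the control of the other experiment, 0 of the 21 and 1 of the 28 kept both folds in their direction and past 2-fold, the 1 being RPS10-NUDT3. The overexpression fold kept its sign by that comparison in 7 of the 21 and 17 of the 28, and the knockdown fold in 7 of the 21 and 13 of the 28. Most of the folds that turned round were under 2-fold in size; those past it were the knockdown folds of ID2, ATP6V1F and GABARAPL1 (1.82, 2.62 and 1.03) and of HOXB7 (−1.26). A response to TTC22 and a difference between the controls cannot be told apart for these genes, because the transfection differs between the experiments and each group has 1 library. Every direction given rests on the library labels. TTC22 set the overexpression library far apart from the rest, but it differed by −0.63 on the log2 scale between knockdown and scramble, and whether any label was exchanged could not be checked further from these values.

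**Figure D3:**
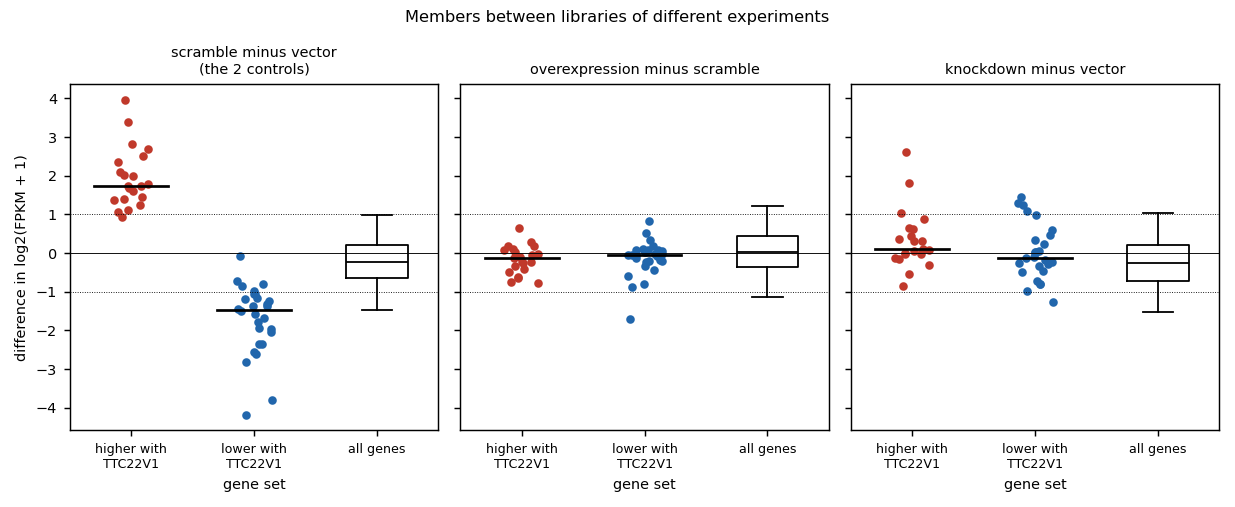
Differences in log2(FPKM + 1) between libraries of different experiments for the 21 members higher with TTC22V1 (red), the 28 lower with it (blue) and all 9226 measured genes (box from the lower to the upper quartile, whiskers from the 5th to the 95th percentile); black bars are medians. The controls differ by medians of 1.73 and −1.47 in the members, while overexpression lies near scramble (medians −0.12 and −0.06) and knockdown near vector (0.11 and −0.12). For all measured genes the 3 medians, in panel order, are −0.23, 0.03 and −0.25, and the choice of members fixed part of these distances.

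Members had fewer exons than other genes. The median was 5 exons in the 21, 6 in the 28 and 10 in all measured genes, by the transcript with most exons in GENCODE 44. Of the 49 members, 15 (30.6%) had under 4 exons, against 7.60% of the measured genes: 5 of the 21 and 10 of the 28. By exon number, members made up 2.49% of the 603 eligible genes with 2 to 3 exons, 0.700% of the 3572 with 4 to 9 and 0.186% of the 4842 with 10 or more, and there was none among the 47 with a single exon. Genes with 2 to 3 exons passed the size rule more often in each comparison taken alone, at 19.1% in the plasmid and 13.8% in the siRNA comparison, against 2.02% and 1.36% of genes with 10 or more. Among the members lower with TTC22V1, the smaller of the 2 folds had a median size of 1.89 in the 10 genes with under 4 exons and 1.17 in the 18 with 4 or more. Among those higher with it these medians were 1.22 and 1.52. A level under 1 FPKM in at least 1 library was found in 5 of the 21 and 14 of the 28, and in 683 of the 9226 measured genes. Whether the quantification of short gene models had a part in these values was not tested.

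**Figure D4:**
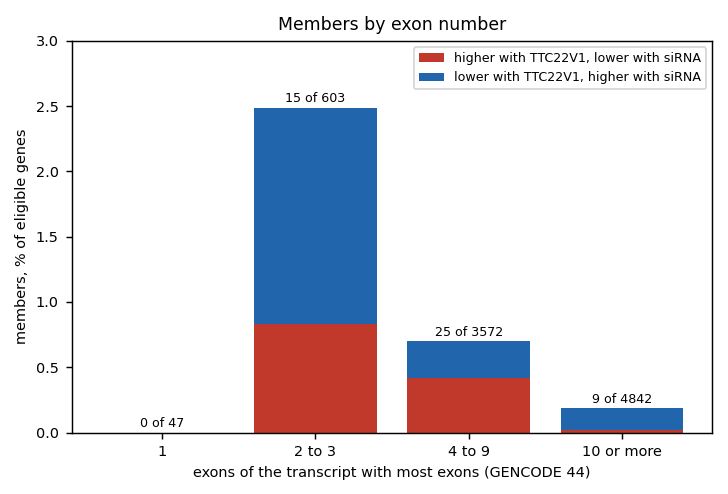
Members as a percentage of the genes that could have become members (y axis), by the exon number of the transcript with most exons (x axis), with the 2 directions stacked. The share was 2.49% at 2 to 3 exons, 0.700% at 4 to 9 and 0.186% at 10 or more.

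Some members share exons with another gene of the tables, so their values are uncertain. STBD1 lies within the readthrough gene FAM47E-STBD1, which stood at 7.63 FPKM with overexpression, 19.9 in scramble and 0.0350 with knockdown and was listed at 0 in vector. That is the reverse of STBD1, which was high in vector and knockdown. Added together, STBD1 and FAM47E-STBD1 came to 9.30 FPKM with overexpression, 7.88 in vector, 19.9 with knockdown and 23.8 in scramble, and the opposite pattern was gone from the sum, though FPKM of models of different length are not strictly additive. RPS10-NUDT3 is a readthrough of RPS10 and NUDT3 and stood at 4.004, 16.3, 46.6 and 15.3 FPKM in overexpression, vector, knockdown and scramble. RPS10 stood at 395, 467, 485 and 478 FPKM and NUDT3 at 2.14, 2.15, 1.22 and 1.23 FPKM, so neither parent moved with it. TMEM189 and UBE2V1 form the readthrough gene TMEM189-UBE2V1. This readthrough was at 0.238 FPKM with overexpression, 0.0391 with knockdown and 0.289 in scramble and was listed at 0 in vector. UBE2V1 itself stood at 9.58, 29.2, 19.9 and 19.9 FPKM and was low with overexpression only. C2orf69 shares exons with C2orf47, at 11.8, 8.44, 3.63 and 4.51 FPKM. Added together, C2orf69 and C2orf47 came to 12.3, 13.9, 7.37 and 4.78 FPKM in overexpression, vector, knockdown and scramble. The treated and control sums were under 2-fold apart in each experiment, with the same limit on adding FPKM. In all, 3 members overlapped an exon of an expressed gene on the same strand and 7 on the other strand, PPIL1, PPP1R11, TPPP, TMEM223, HOXA10, DCP2 and MED1, and the sources used here do not give the strand setting of the counting.

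Genes taken as lists mostly did not pass the size rule, and neither did most measured genes. The lists of O-mannose glycosylation and of GalNAc transferases hold no member. Of all genes measured in the plasmid comparison 2.08% were higher and 4.1% lower by 2-fold. In the siRNA comparison 2.57% were higher and 2.19% lower. Nothing particular to the listed genes is read from the counts below. Of 5 adenylate kinases measured in each comparison, AK3 alone passed the size rule, higher with overexpression and lower with knockdown, and the list medians were −0.01 and −0.19. Of 7 genes of ADNP and its chromatin partners, ADNP2 and CBX1 passed, in opposite directions, with medians of −0.29 and 0.02. Of 8 genes of O-mannose glycosylation none passed in the plasmid comparison and 1 of 7 was higher in the siRNA comparison, POMGNT2, at 10.5 FPKM with knockdown and 0.213 in scramble, but at 10.998 and 14.7 FPKM with overexpression and in vector. Of 10 GalNAc transferases 1 was higher and 1 lower with overexpression and 2 were lower with knockdown: GALNT1 (10.1, 0.342, 6.75 and 3.25 FPKM in overexpression, vector, knockdown and scramble), GALNT10 (1.21, 4.94, 0.879 and 3.796 FPKM), and GALNT2 (10.4, 13.8, 4.21 and 10.8 FPKM). The medians of these lists were −0.20 and −0.11 for O-mannose glycosylation and −0.39 and −0.23 for the GalNAc transferases. Of 11 tight junction genes 2 were lower with overexpression, F11R and CLDN1, and of 10 in the siRNA comparison F11R was higher and CLDN3, with 1 exon and listed at 0 in the other 3 libraries, was at 4.60 FPKM in scramble. CLDN1 stood at 0.0453, 2.00, 1.70 and 0.0289 FPKM and missed membership by its mean level in the siRNA pair. The tight junction medians were −0.28 and −0.07. The genes measured in each comparison, whether or not they were measured in the other, had medians of −0.21 and −0.02.

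Most listed markers of squamous and basal epithelium moved with the members lower with TTC22V1. Of 16 markers, taken at any level, 12 were higher in both vector and knockdown than in both other libraries. Among the 9226 genes measured in both experiments the share was 11.2%. The sets differ, since the 12 include TP63, PKP1, DSG3 and TRIM29, whose mean was under 1 FPKM in at least 1 experiment. KRT6B, KRT16, SERPINB5 and LAMB3 did not show this order. Of the 11 measured in each comparison 8 were lower with overexpression and 7 higher with knockdown, with medians of −2.00 and 2.47. The shares over all genes measured in the pair were 4.1% lower and 2.57% higher. Their summed level was 39.1 FPKM with overexpression, 425 in vector, 527 with knockdown and 146 in scramble. A pair of genes carried most of these sums: SFN stood at 8.16, 274, 262 and 8.66 FPKM in that order, and LAMB3, a laminin chain, at 16.2, 30.3, 149 and 116 FPKM, high in both libraries of the siRNA experiment. COL17A1 is itself in this list, and its keratins, SFN and S100A2 were left out of the members by name. TP63, the transcription factor that defines basal cells, was at 2.08 FPKM in vector, 0.124 with knockdown and 0.00785 with overexpression and listed at 0 in scramble, as was DSG3. The list was drawn up with earlier results of these libraries known and is no independent evidence of direction. Whether such cells or such a state had a part in the members' values was not tested. Of markers of immune, endothelial and fibroblast cells, 12 of 14 were under 1 FPKM in all libraries, PTPRC and CD3E were at or near 0, and CD68 and COL1A1, at 5.76 to 42.6 and 1.82 to 2.99 FPKM, did not pass the size rule.

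The genes outside the members most like the leading ones over the 4 libraries were sought among 2823 measured genes that spanned at least 2-fold, by the summed absolute difference of centred log2(FPKM + 1). For ADNP2 and KIAA0040 these were C6orf226, KLHL9 and EXOSC6, with summed differences between 0.878 and 1.35. For AK3 they were EXOSC6 (0.944), C6orf226 (1.002) and RPL29 (1.36). C6orf226, KLHL9 and EXOSC6 have 1 exon and were listed at 0 in vector and in knockdown, which kept them out of the members. RPL29, a ribosomal protein with many pseudogenes, was left out by name and stood at 401, 159, 281 and 639 FPKM in overexpression, vector, knockdown and scramble.

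The threshold fell within a continuous range of folds. Just inside it lay CNN2 (1.03 and −1.26) and EMC6 (1.03 and −1.78), and just outside it AIF1L (0.94 and −1.35) and DERL1 (0.90 and −1.07). In the other direction RAP1GAP2 (−1.55 and 1.01) and HSD17B12 (−1.22 and 1.01) lay just inside, and PSMD10 (−0.99 and 1.54) just outside. Of the 9092 eligible genes 3944 had folds of opposite sign at any size and 5148 of the same sign.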

How the data were processed

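Polyadenylated RNA of 4 HCT116 libraries was sequenced in pairs of reads, per the labels' protocols, and aligned with STAR, with no version stated, to hg38, per the submitters' processing notes. The deposited tables, 1 per experiment, hold values taken to be FPKM as made by the authors: the headers name no unit, and the values are not whole and differ in sum between libraries. The sources used here do not name the program, annotation or filters behind them, and no depth, interval or floor could be given. The tables were joined on the gene identifier (47251 rows), and log2 was taken after adding 1 FPKM as a pseudocount. Tables may have been scaled separately, so levels set across experiments are descriptions. Exon numbers, overlaps and coordinates came from GENCODE 44 on hg38, which held 91.6% of the identifiers, and promoters from RefSeq on GRCh38.p14, which matched 16 of the 21 and 21 of the 28 members. No test was possible with 1 library per group. The rule for named genes took up to 20 members per direction with 4 or more exons and 6 with fewer; all members are given here, with their relatives, markers, the nearest genes by pattern and those next to the threshold. The relatives were chosen after the data had been seen, and the members and lists were chosen with earlier results of these data known. The rule was tested on simulated data in which all 4 libraries shared a base level and changes were planted in the treated libraries only. In the data 17.7% of measured genes differed by at least 2-fold between the controls, and the simulation does not cover such genes. Alternatives changed the pseudocount, centring, filters, size and controls. Python 3.11.15, pandas 2.3.3 and NumPy 2.4.6 were used.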

Additional observations from a re-analysis of the deposited data

How the results depend on the processing

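No paired analysis was possible because each group has 1 library and no replicates to pair. The counts of 21 and 28 stayed within 1.5 times with a pseudocount of 0.1 (30 and 42), median-centred folds (26 and 26), no minimum mean (22 and 33), genes with a 0 kept (30 and 31) and the names kept (22 and 39). After centring all 21 and 25 of the 28 members remained, ZNF184, LCLAT1 and MED1 falling within 2-fold, and the 4 medians kept their signs. A size of 1.5-fold gave 46 and 81 genes and a size of 4-fold 1 and 4. A mean of at least 5 FPKM left 17 and 10, and 4 or more exons left 16 and 18, which are subsets by construction. Against the control of the other experiment the rule found 469 and 212 genes, of which 0 and 1 were members, and 4 member folds turned sign past 2-fold, all with knockdown: ID2 at 1.82, ATP6V1F at 2.62, GABARAPL1 at 1.03 and HOXB7 at −1.26. Against the mean of both controls it found 6 and 13, of which 1 and 5 were members. The cause was not tested. With unknown depth, low values have no error.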

Other observations

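A further 12 genes stood past 2-fold in opposite directions but were listed at 0 in at least 1 library, so no fold is given. Of these, 9 had the direction of ADNP2, and 9 of the 12 have a single exon. RRS1, a ribosome assembly factor, was at 15.6 FPKM with overexpression and 7.98 FPKM in scramble and listed at 0 in vector and knockdown. KLHL9, an adapter of a ubiquitin ligase, was at 5.31 and 7.22 FPKM in overexpression and scramble and listed at 0 in the others, as were C6orf226 (4.38 and 4.31 FPKM) and EXOSC6, an exosome subunit (2.52 and 2.33 FPKM). INTS5, an Integrator subunit with 2 exons, was at 10.5 and 7.82 FPKM there, at 0.00169 FPKM in vector and listed at 0 in knockdown. In the other direction SDHAF1, an assembly factor of succinate dehydrogenase, stood at 15.8 and 9.30 FPKM in vector and knockdown and was listed at 0 in the other libraries. INAFM1 was at 2.57, 6.26 and 6.23 FPKM in overexpression, vector and knockdown and listed at 0 in scramble. Overexpression and scramble shared the same side in each of these, as in the members.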
